A study of Mus musculus with 4 samples.

Results

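The transcripts described here are those of the mitochondrial genome, the small circular DNA that mitochondria keep apart from the nuclear chromosomes. They were taken as all gene IDs of the count table whose GENCODE symbol starts with mt-, which gave 37 of 55487 genes: 13 mRNAs, 2 ribosomal RNAs and 22 transfer RNAs. The RNA came from the skull vault of mouse embryos at stage E14.5 and was labelled as polyA RNA. There were 2 frontal libraries, from the frontal bone, and 2 parietal and interparietal libraries, in which the parietal and interparietal bones were pooled. Strain, sex, litter and number of embryos per library are not in the labels, nor do they state whether a group's libraries were made from different animals. The p-values therefore reflect the spread of these 4 samples alone, and that spread may be technical. Each library had between 24069177 and 35555013 counts. Osteoblast lineage markers were present, with all 11 tested, but so were markers of muscle, neurons, blood and skin, so the libraries were mixtures of tissues.

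Every mRNA of this genome encodes a subunit of the respiratory chain or of ATP synthase, and its ribosomal and transfer RNAs serve only the ribosome inside the mitochondrion. Both strands are copied from end to end into long precursors, and most transfer RNAs sit between the longer genes and are cut out, which frees the mRNAs and ribosomal RNAs. Most mitochondrial mRNAs carry short poly(A) tails, so these are caught in libraries made from poly(A) RNA, and for some of them the tail completes the stop codon. Bone-forming cells are known to be rich in mitochondria, whose citrate cycle also makes the citrate that is built into bone mineral.

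The genes were packed closely. Of the 36 steps from a gene to the next, 34 had a gap of 3 bases or fewer or an overlap, and 9 were overlaps. The largest overlap between mRNAs, 43 bases, joins the ATP synthase subunit genes mt-Atp8 and mt-Atp6. The whole of mt-Atp8 (chrM:7766-7969, plus strand, GRCm38) is shown because it was the mRNA with the fewest counts, with the bases it shares with mt-Atp6 in capitals; it and the sequences after it are from GENCODE M21 transcripts, with GRCm38 coordinates.
mt-Atp8: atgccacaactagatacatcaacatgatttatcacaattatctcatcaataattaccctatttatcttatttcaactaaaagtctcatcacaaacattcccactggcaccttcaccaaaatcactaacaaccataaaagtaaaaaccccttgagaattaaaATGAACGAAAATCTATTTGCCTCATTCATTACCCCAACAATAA

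The last codon of 3 of the 13 mRNAs, mt-Co3, mt-Nd4 and mt-Cytb, is a single T in the annotated sequence. The last 30 bases of mt-Nd4 (chrM:11515-11544) are shown beside those of mt-Co1 (chrM:6843-6872), with the last codon in capitals, because mt-Nd4 is the mRNA with the largest called difference below and mt-Co1 the most abundant mRNA.
mt-Nd4: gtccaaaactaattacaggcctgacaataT
mt-Co1: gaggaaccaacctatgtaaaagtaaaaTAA

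Several mitochondrial mRNA genes have copies in the nuclear chromosomes, and the part of these copies in the measured levels was not tested. A search of the annotated transcripts for stretches of at least 100 bases and 90% identity found 17 nuclear copies of 11 mitochondrial mRNAs. A set of 7 of them lies side by side on the minus strand of chromosome 1 (chr1:24611535-24616197) in the order of the mitochondrial genome, within 1 base of a constant offset, and matches positions between 6390 and 11042 of that genome at 99.7% to 100% identity. The other 10 copies were 90.7% to 97.6% identical, and none had more than 335 counts in a library. The start of mt-Co2 (chrM:7013-7102), a subunit of cytochrome c oxidase, shows how close the match can be. Its first 90 bases are printed with those of the chromosome 1 copy Gm28661 (chr1:24615476-24615565, minus strand) and of Gm13341 on chromosome 2 (chr2:22587873-22587962, minus strand), and capitals mark bases that differ from mt-Co2, of which Gm28661 has 0 and Gm13341 has 2.
mt-Co2: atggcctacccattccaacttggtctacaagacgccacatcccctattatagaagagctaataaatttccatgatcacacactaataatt
Gm28661: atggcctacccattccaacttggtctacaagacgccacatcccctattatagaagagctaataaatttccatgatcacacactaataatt
Gm13341: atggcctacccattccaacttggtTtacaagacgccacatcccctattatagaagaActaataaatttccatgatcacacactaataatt

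A read from such a stretch matches both places, and how reads with several matches were counted is not given in the sources used here. In mt-Nd4 the annotated copy, Gm28439, covers the first 876 bases and leaves 502. The 90 bases around its end (chrM:10998-11087, plus strand) are shown with the shared bases in capitals.
mt-Nd4: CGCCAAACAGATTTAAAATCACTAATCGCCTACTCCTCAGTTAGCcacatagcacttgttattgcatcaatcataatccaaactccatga

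Levels of different genes were compared as CPM (each library's counts scaled to a common total and adjusted with edgeR's TMM factors) per kilobase of gene. The 6 mRNAs that lie wholly inside the stretch matched on chromosome 1 had group means of 2.49 to 421 CPM per kb in frontal and 3.06 to 515 CPM per kb in parietal and interparietal libraries. The 5 mRNAs wholly outside it had 237 to 1661 CPM per kb in frontal and 219 to 1732 CPM per kb in parietal and interparietal libraries. The ranges overlapped, because mt-Atp6 inside was above mt-Nd2 and mt-Nd5 outside. No annotated copy of mt-Atp8 reached 100 bases, although the gene lies inside the matched stretch, and it had the lowest level of the 13 mRNAs. The 43 bases that mt-Atp8 shares with mt-Atp6 lie in the chromosome 1 copy of mt-Atp6, which was counted for mt-Atp6 only. The part that the copies had in these levels was not tested. A low value of mt-Co2, mt-Atp8, mt-Atp6, mt-Co3, mt-Nd3 or mt-Nd4l cannot be read as a low amount of that mRNA. The same limit applies to mt-Nd4 and mt-Co1 over the part of their length in a near-identical copy, 63.6% and 31.3%.

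**Figure D1:**
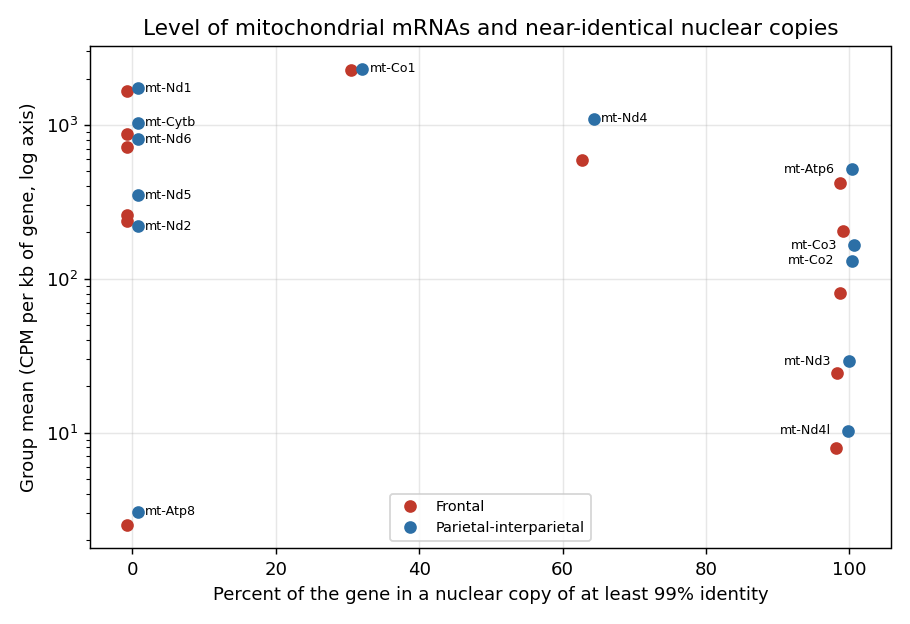
Group means of the 13 mRNAs in CPM per kb of gene (log axis) against the percentage of each gene's length found in an annotated nuclear copy of at least 99% identity, with frontal in red and parietal-interparietal in blue (points shifted slightly sideways, n = 2 libraries each). The 5 genes copied over nearly their whole length, at the right, run between 7.98 and 515 CPM per kb. Lowest is mt-Atp8, which lies inside the copied stretch but has no annotated copy of 100 bases. It is drawn at 0%, although the 43 bases it shares with mt-Atp6 lie in the copy of mt-Atp6.

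The ribosomal RNAs made up a larger part of the mitochondrial counts in frontal libraries. They took 55.3% and 54.8% of mitochondrial counts in frontal libraries 1 and 2, against 35.98% and 36.4% in parietal and interparietal libraries 1 and 2. The share taken by mRNAs was 44.6% and 45.2% for frontal bone, against 63.9% and 63.5% for parietal and interparietal bone. Neither share overlapped between the groups, and the libraries of a group differed by under 1 percentage point. Over all genes, mitochondrial transcripts were 1.70% (95% Wilson interval 1.69 to 1.70) and 2.04% (2.03 to 2.04) of a library in frontal libraries 1 and 2, against 1.57% (1.56 to 1.57) and 1.56% (1.55 to 1.56) in parietal and interparietal libraries 1 and 2. These intervals cover counting error only, and the gap between the 2 frontal libraries was far wider than they are. In RNA from whole tissue, fewer cells of a type and less RNA per cell cannot be told apart.

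Summed by class, ribosomal RNA was at 9660 and 11269 CPM in frontal and 5557 and 5563 CPM in parietal and interparietal libraries, a 1.88-fold ratio of means. The mRNAs summed to 7795 and 9294 CPM in frontal and 9873 and 9708 CPM in parietal and interparietal libraries, and these groups did not overlap, but the gap between their means was smaller than the gap between the 2 frontal libraries. The log2 ratio of these means was −0.20 for mRNA and 0.91 for ribosomal RNA. An exact permutation test of 2 libraries against 2 cannot give a p below 0.333, so sums and ratios are given without a test.

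Of the 37 genes, 27 had a count in some library and 16 passed the filter on low counts: the 13 mRNAs, the 2 ribosomal RNAs and the proline transfer RNA mt-Tp. A gene was called at an adjusted p under 0.05 in edgeR's quasi-likelihood test, with Benjamini-Hochberg adjustment over all 20947 genes tested. The background of calls over all tested genes was 6.25% higher and 6.44% lower for frontal bone, 12.7% in all. Of the 16 mitochondrial genes 2 were called higher, both ribosomal RNAs, and 2 lower, mt-Nd4 and mt-Nd5. Frontal libraries lay wholly above the others for 3 of the 16 and wholly below for 5, where 28.9% and 28.4% of all tested genes did so. The median log2 fold change was −0.25 over the 16 and 0.0060 over all genes tested. Leaving out either frontal library or parietal and interparietal library 2, or summing the parietal and interparietal pair as 1 sample, changed these counts. Leaving out parietal and interparietal library 1 kept the counts of calls but not the same genes. All these settings moved the calls over all genes as well. With libraries scaled by their total counts alone, 984 of all genes were called higher and 1606 lower, against 1309 and 1348 with TMM, and 2 mitochondrial genes were called higher and 3 lower.

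The large-subunit ribosomal RNA mt-Rnr2 (ENSMUSG00000064339, chrM:1094-2675, plus strand), which holds the peptide-forming centre of the mitochondrial ribosome, was at 8141 and 9256 CPM in frontal libraries 1 and 2 and at 4358 and 4387 CPM in parietal and interparietal libraries 1 and 2. Both frontal libraries stood above both others, and in mean CPM the gene ranked 2 among all tested genes. Its log2 fold change was 0.99 ± 0.07 (SE; 1.99-fold, edgeR adjusted p = 2.25e-05). The call held in all 14 alternatives, with adjusted p of at most 0.000169.

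The small-subunit ribosomal RNA mt-Rnr1 (ENSMUSG00000064337, chrM:70-1024, plus strand), the decoding RNA of the same ribosome, stood at 1519 and 2014 CPM for frontal bone, against 1199 and 1176 CPM for parietal and interparietal bone. The groups did not overlap, but frontal library 1 was closer to the parietal and interparietal libraries than to frontal library 2. Its log2 fold change was 0.57 ± 0.11 (1.49-fold, edgeR adjusted p = 0.0078). It was 0.76 without frontal library 1 and 0.35 without frontal library 2, called in both cases. With the parietal and interparietal pair summed as 1 sample the call was lost, at an adjusted p of 0.0524, the highest over its 14 alternatives.

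Both ribosomal RNAs come from the start of the same precursor, but their counts did not keep a constant ratio. There were 5.36 and 4.60 counts of mt-Rnr2 per count of mt-Rnr1 in frontal libraries 1 and 2, against 3.63 and 3.73 in parietal and interparietal libraries 1 and 2. The frontal libraries lay above the others in this ratio and apart from each other. Mature mitochondrial ribosomal RNA carries at most a very short tail, and cytosolic ribosomal RNA carries none. At the annotated ribosomal RNA locus CT010467.1 on chromosome 17, 9.86% and 8.03% of all counts were found in frontal libraries 1 and 2, against 6.07% and 5.97% in parietal and interparietal libraries 1 and 2 (a log2 fold change 0.63 ± 0.08, edgeR adjusted p = 0.0012). This share thus moved with the mitochondrial ribosomal RNAs between groups, while within the frontal group library 1 had more of CT010467.1 and less of both mitochondrial ribosomal RNAs than library 2. Its part in the mt-Rnr1 and mt-Rnr2 differences was not tested.

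**Figure D2:**
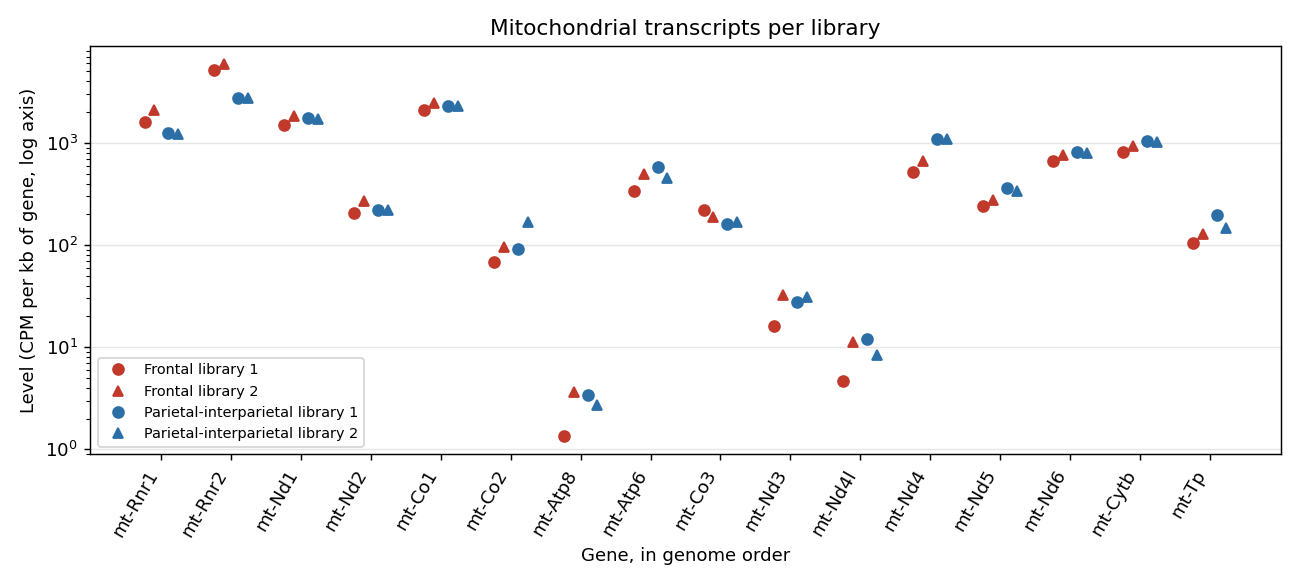
Level in CPM per kb of gene (log axis) of the 16 tested mitochondrial genes in genome order, with frontal libraries in red on the left and parietal and interparietal libraries in blue on the right of each gene (circle, library 1; triangle, library 2). Both frontal points of mt-Rnr2 stand above and both frontal points of mt-Nd4 below the blue ones, and mt-Atp8, mt-Nd4l and mt-Nd3 are the lowest genes.

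Subunits of complex I, the NADH dehydrogenase that passes electrons into the chain, are encoded by 7 of the 13 mRNAs, and they held both called mRNAs. Of these 7, 0 were called higher, 2 lower and 5 were not called. The membrane subunit gene mt-Nd4 (ENSMUSG00000064363, chrM:10167-11544, plus strand), which encodes a proton-pumping part of the complex, was at 717 and 914 CPM in frontal and 1519 and 1495 CPM in parietal and interparietal libraries. Neither frontal library came near the level of the others. Its log2 fold change was −0.89 ± 0.10 (1.85-fold lower, edgeR adjusted p = 0.000501), and the call held in all 14 alternatives, with adjusted p of at most 0.000886. With the counts of the nuclear copy Gm28439 added, an alternative chosen after seeing the data, the log2 fold change was −0.88. Gm28439 held only 0.255% to 0.365% of the counts given to it and mt-Nd4 in a library, so this could hardly change the value. Reads left out for matching both places, if any, are in neither count, so the part of the copy was not tested.

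The gene mt-Nd5 (ENSMUSG00000064367, chrM:11742-13565, plus strand), which encodes the largest proton-pumping subunit, was at 442 and 500 CPM in frontal and 658 and 613 CPM in parietal and interparietal libraries. The groups did not overlap. Its log2 fold change was −0.43 ± 0.08 (1.35-fold lower, edgeR adjusted p = 0.00723). The call was lost without parietal and interparietal library 1, at an adjusted p of 0.194, without parietal and interparietal library 2, at 0.0673, and with that pair summed, at 0.132, and 0.194 was the highest over its 14 alternatives.

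The other complex I mRNAs were not called. The mt-Nd1 subunit (chrM:2751-3707), which lies where the membrane arm meets the peripheral arm, was at 1421 and 1759 CPM in frontal and 1669 and 1646 CPM in parietal and interparietal libraries (log2 fold change −0.06 ± 0.09). Here the frontal libraries lay on either side of the others. The membrane subunit mt-Nd2 (chrM:3914-4951) was at 212 and 280 CPM in frontal and 227 CPM in both parietal and interparietal libraries (0.12 ± 0.12), again with the frontal libraries on either side. With a single frontal library both were called, in opposite directions: without frontal library 1 the log2 fold change was 0.087 for mt-Nd1 and 0.31 for mt-Nd2, and without frontal library 2 it was −0.23 and −0.11. For mt-Nd3 (chrM:9459-9806) the values were 5.63 and 11.3 CPM in frontal and 9.57 and 10.7 CPM in parietal and interparietal libraries (−0.25 ± 0.27). The small subunit mt-Nd4l (chrM:9877-10173), whose last 7 bases overlap mt-Nd4, had 40 and 118 counts in frontal libraries 1 and 2 and 88 and 68 counts in parietal and interparietal libraries 1 and 2 (−0.35 ± 0.42). Both small genes were lowest in frontal library 1 and the frontal libraries lay apart. Without frontal library 2, mt-Nd3 was called at a log2 fold change of −0.86 (edgeR adjusted p = 0.000272) and mt-Nd4l at −1.14 (0.0194), and without frontal library 1 their values were 0.16 and 0.14, not called. Over their 14 alternatives the adjusted p ran up to 0.88 for mt-Nd3 and 0.977 for mt-Nd4l.

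The only mRNA on the other strand, mt-Nd6 (ENSMUSG00000064368, chrM:13552-14070, minus strand), was at 349 and 399 CPM in frontal and 425 and 413 CPM in parietal and interparietal libraries. Both frontal libraries lay below both others, and the log2 fold change of −0.16 ± 0.08 was not called (edgeR adjusted p = 0.235). Without frontal library 2 it was −0.27 and called, at an adjusted p of 1.65e-13, and without frontal library 1 it was −0.07, with up to 0.775 over the 14 alternatives. Its neighbour mt-Nd5 overlaps it by 14 bases on the opposite strand. The ratio of mt-Nd6 to mt-Nd5 counts was 0.789 and 0.799 in frontal and 0.646 and 0.673 in parietal and interparietal libraries, with no overlap. The strand setting of the counting is not given in the sources used here, so reads of mt-Nd6 and of precursor RNA from the opposite strand cannot be told apart.

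Cytochrome b, encoded by mt-Cytb (ENSMUSG00000064370, chrM:14145-15288, plus strand), is the only mitochondrially encoded subunit of complex III. It was at 928 and 1070 CPM in frontal and 1191 and 1175 CPM in parietal and interparietal libraries. The groups did not overlap, and the log2 fold change of −0.24 ± 0.08 was not called (edgeR adjusted p = 0.0698). It was called with libraries scaled by total counts alone (0.0462), in DESeq2 (0.0482), with no filter on low counts (0.00511) and without either frontal library, and the adjusted p ran up to 0.511 over its 14 alternatives. Its log2 fold change was −0.14 without frontal library 1 and −0.36 without frontal library 2.

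None of the 3 mRNAs of complex IV, cytochrome c oxidase, was called. The catalytic subunit gene mt-Co1 (ENSMUSG00000064351, chrM:5328-6872, plus strand) had the highest level of any mRNA of this genome, at 3268 and 3803 CPM in frontal and 3585 and 3572 CPM in parietal and interparietal libraries. The frontal libraries lay on either side of the others (log2 fold change −0.02 ± 0.07, edgeR adjusted p = 0.915), and it was called at 0.089 without frontal library 1 and at −0.14 without frontal library 2. For mt-Co2 (chrM:7013-7696), which takes electrons from cytochrome c, the values were 46.2 and 64.9 CPM in frontal and 62.7 and 116 CPM in parietal and interparietal libraries (−0.68 ± 0.24, adjusted p = 0.0909). These groups overlapped, parietal and interparietal library 2 stood apart, and without it the log2 fold change was −0.18. Without parietal and interparietal library 1 mt-Co2 was called, at an adjusted p of 0.000453, with the pair summed at 0.0335, and also with no filter on low counts, with the replicate number as a block and without either frontal library, and over its 14 alternatives the adjusted p ran up to 0.766. The third subunit gene, mt-Co3 (chrM:8607-9390), was at 172 and 148 CPM in frontal and 126 and 133 CPM in parietal and interparietal libraries. It was the only tested mRNA with both frontal libraries above both others (0.30 ± 0.09, adjusted p = 0.06), and it was not called. It was called in DESeq2 (0.0437), with the replicate number as a block (0.0385), with no filter on low counts (0.00949) and without either frontal library, where its log2 fold change was 0.19 without library 1 and 0.40 without library 2. Over its 14 alternatives the adjusted p ran up to 0.517.

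The 2 mRNAs of complex V, the ATP synthase, were not called either. The proton channel subunit gene mt-Atp6 (chrM:7927-8607) was at 233 and 340 CPM in frontal and 396 and 305 CPM in parietal and interparietal libraries (log2 fold change −0.29 ± 0.16). Its libraries overlapped between groups, and it was called with no filter on low counts (edgeR adjusted p = 0.00601) and, at −0.60, without frontal library 2, with an adjusted p of up to 0.889 over its 14 alternatives. The short gene mt-Atp8, printed above, had 8 and 26 counts in frontal and 17 and 15 counts in parietal and interparietal libraries (−0.28 ± 0.73).

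**Figure D3:**
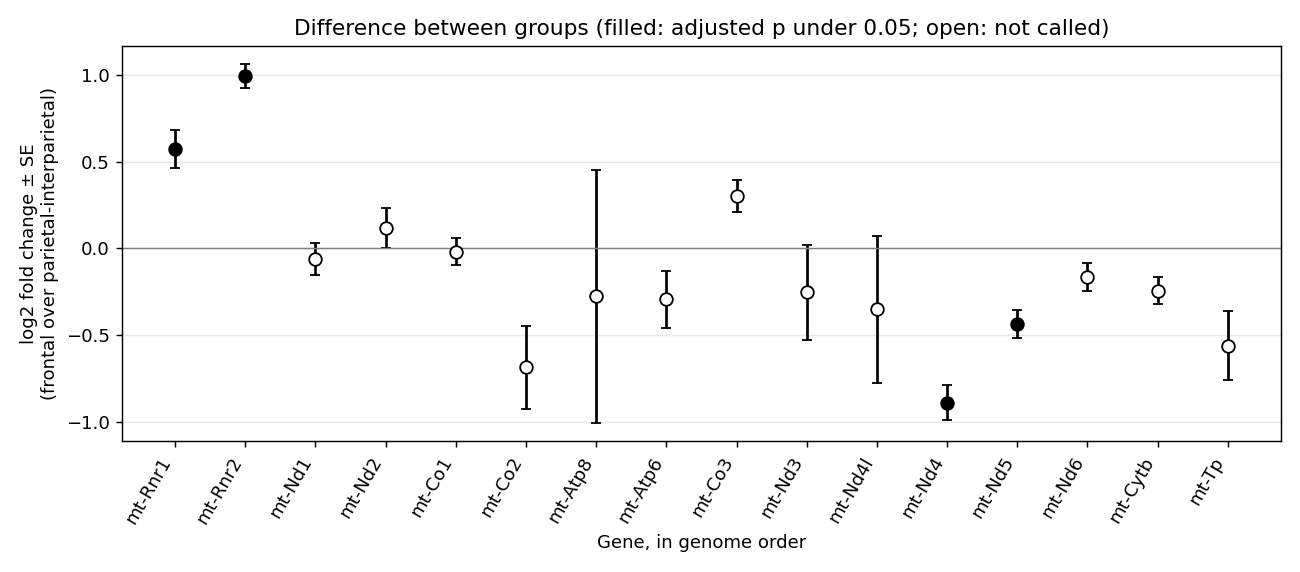
Log2 fold change of frontal over parietal and interparietal libraries with its standard error for the 16 tested mitochondrial genes in genome order (n = 2 libraries each, edgeR). Filled points were called: mt-Rnr1 and mt-Rnr2 above 0, mt-Nd4 and mt-Nd5 below 0.

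Along the genome the called ribosomal RNAs lay at positions 70 to 2675 and the called mRNAs at 10167 to 13565. The last plus-strand mRNA, mt-Cytb, was not called. The 3 mRNAs before mt-Co2, which are mt-Nd1, mt-Nd2 and mt-Co1, summed to 4900 and 5843 CPM in frontal and 5481 and 5445 CPM in parietal and interparietal libraries and overlapped between groups. The 4 from mt-Nd4 onward were mt-Nd4, mt-Nd5, mt-Nd6 (on the minus strand) and mt-Cytb. They summed to 2436 and 2883 CPM in frontal and 3793 and 3696 CPM in parietal and interparietal libraries and did not overlap. This block begins at a called gene and holds both called mRNAs, so its separation adds nothing to those calls. The block means were 2660 CPM in frontal and 3744 CPM in parietal and interparietal libraries, with 816 and 1507 CPM for mt-Nd4 alone. Along the block the log2 fold changes were −0.89, −0.43, −0.16 and −0.24. Over the 15 mRNAs and ribosomal RNAs, the order along the genome and the log2 fold change had a Spearman rho of −0.58 as a description, and over the 13 mRNAs alone it was −0.35. These genes share the same 4 libraries and part of them share the nuclear copies, so they are not independent points.

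Ratios within a library do not depend on how libraries are scaled. There were 0.505 and 0.519 counts of mt-Nd4 per count of mt-Nd1 in frontal libraries 1 and 2, against 0.910 and 0.908 in parietal and interparietal libraries 1 and 2. The ratio of mt-Nd5 to mt-Nd1 was 0.311 and 0.284 in frontal and 0.394 and 0.373 in parietal and interparietal libraries. Both ratios were lower in each frontal library, and the limit that nuclear copies set on mt-Nd4 counts applies here too. For mt-Co1 over mt-Nd1 the ratio was 2.30 and 2.16 in frontal and 2.15 and 2.17 in parietal and interparietal libraries, which overlapped. Ribosomal RNA over mRNA was 1.24 and 1.21 in frontal and 0.563 and 0.573 in parietal and interparietal libraries. The 2 frontal libraries were closer to each other in this last ratio than in the CPM of either class.

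**Figure D4:**
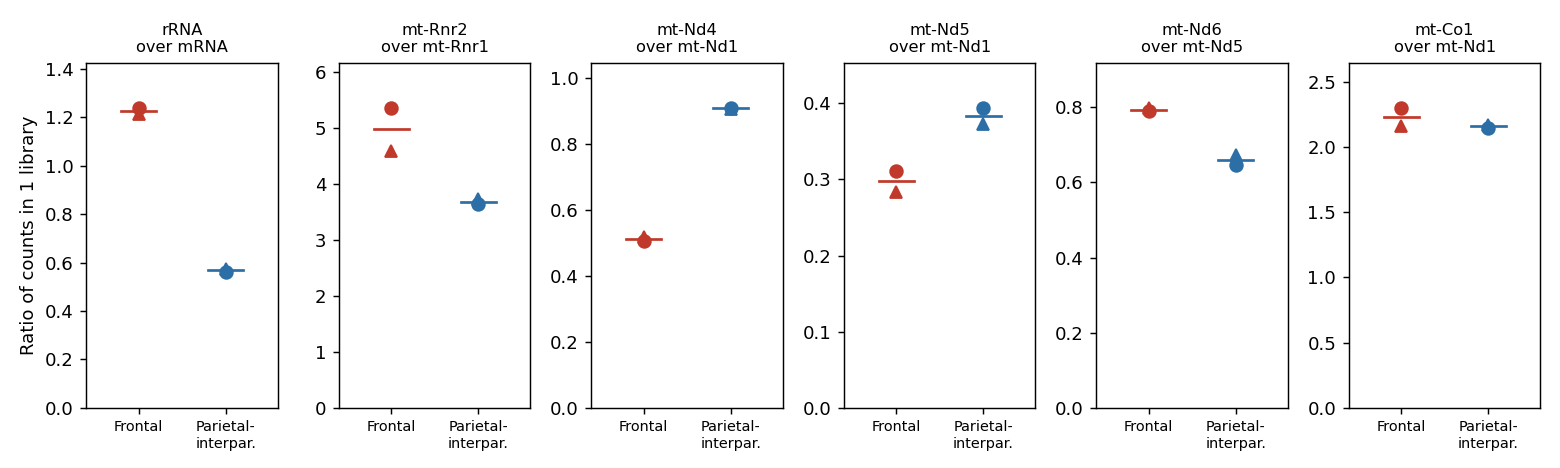
Ratio of counts within each library for 6 pairs of mitochondrial genes or classes, frontal in red on the left and parietal-interparietal in blue on the right of each panel (circle, library 1; triangle, library 2; line, group mean; each vertical axis starts at 0). The groups are apart for ribosomal RNA over mRNA (1.24 and 1.21 against 0.563 and 0.573) and for mt-Nd4 over mt-Nd1, and overlap for mt-Co1 over mt-Nd1.

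The transfer RNAs, which are 59 to 75 bases long, were hardly counted. Of the 22, 10 had no count in any library, which allows up to 0.0852 to 0.123 CPM per library (3 counts). Only mt-Tp (ENSMUSG00000064372, chrM:15356-15422, minus strand) passed the filter, with 201 and 305 counts in frontal and 325 and 267 counts in parietal and interparietal libraries. In CPM this was 6.99 and 8.66 in frontal and 13.3 and 9.84 in parietal and interparietal libraries, lower in both frontal libraries but not called (log2 fold change −0.56 ± 0.20, edgeR adjusted p = 0.0957). It was called with no filter on low counts (0.0405) and without frontal library 2 (0.000701), and the adjusted p ran up to 0.67 over its 14 alternatives. The 67 bases of mt-Tp are printed because it held nearly all transfer RNA counts, beside those of its neighbour on the opposite strand, the threonine transfer RNA mt-Tt (chrM:15289-15355), which had 1 count in all 4 libraries together.
mt-Tp: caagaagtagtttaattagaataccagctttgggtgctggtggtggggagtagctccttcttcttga
mt-Tt: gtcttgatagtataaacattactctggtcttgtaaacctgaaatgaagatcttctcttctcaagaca

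No other transfer RNA exceeded 14 counts in a library. The counts differed by strand. All 8 transfer RNAs on the minus strand had at least 1 count, and 4 of the 14 on the plus strand did. The cysteine transfer RNA mt-Tc had 14 and 8 counts in frontal and 1 and 3 counts in parietal and interparietal libraries. For the glutamine transfer RNA mt-Tq there were 0 and 12 counts in frontal and 1 and 3 counts in parietal and interparietal libraries, and mt-Te, mt-Tn, mt-Ts1, mt-Ta and mt-Ty summed to 9, 5, 3, 2 and 2 counts over all libraries. The 4 counted on the plus strand, mt-Tm, mt-Th, mt-Tl2 and mt-Tt, had 1 count each in all libraries together. How the authors counted a read that touches more than 1 gene is not given in the sources used here, so these counts do not measure the amounts of transfer RNA.

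The nuclear copies on chromosome 1 were listed with counts of their own, and these did not all follow their mitochondrial originals. Gm28661 had 649 and 1336 counts in frontal and 791 and 1252 counts in parietal and interparietal libraries, 28.5% to 36.9% of all counts given to it and mt-Co2 together, and was not called. It was called with no filter on low counts, with the replicate number as a block and without frontal library 2, where its log2 fold change was −0.81, against −0.37 with all libraries. Gm10925, identical to mt-Atp6 over 678 bases, was at 8.66 and 13.2 CPM in frontal and 46.5 and 43.2 CPM in parietal and interparietal libraries (a log2 fold change of −2.03 ± 0.17, edgeR adjusted p = 8.25e-05). It took 3.59% and 3.74% of the counts given to it and mt-Atp6 in frontal libraries and 10.5% and 12.4% in parietal and interparietal libraries, and mt-Atp6 itself was not called. Gm29216, a copy of the end of mt-Co1, was at 40.1 and 39.2 CPM in frontal and 22.2 and 22.8 CPM in parietal and interparietal libraries (0.82 ± 0.10, adjusted p = 0.000934), while mt-Co1 was not called. Gm28437, the copy of mt-Co3, was not called. Of the 7 copies 1 was called higher and 2 lower, where 6.25% and 6.44% of all tested genes were. The third call was Gm28438, the copy of mt-Nd3, named after its values were seen (−1.34 ± 0.38, edgeR adjusted p = 0.0458). That call was lost in DESeq2, without either parietal and interparietal library and with that pair summed. With the counts of all 17 copies added to their originals, the log2 fold change of mt-Atp6 was −0.41, that of mt-Nd3 −0.44 and that of mt-Co2 −0.58, none of them called. The called mitochondrial genes numbered 2 higher and 2 lower as before. Adding the counts cannot restore reads that were left out for matching several places, if any were.

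Nuclear genes that transcribe the mitochondrial genome and process its RNA were mostly not called. Of 78 tested genes in 3 lists (transcription and DNA upkeep, RNA processing and stability, and regulators of mitochondrial biogenesis), 4 were higher, 2 lower and 72 not called, with a median log2 fold change of 0.03. That share was below the 12.7% called among all genes. None of these calls held without either parietal and interparietal library or with that pair summed, settings in which the calls over all genes also fell. Without either frontal library more of them were called, and so were more of all genes.

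Tfam, which packs mitochondrial DNA and starts its transcription, was at 53.2 and 57.0 CPM in frontal and 39.6 and 38.5 CPM in parietal and interparietal libraries (1.41-fold higher, edgeR adjusted p = 0.00792). Both frontal libraries were higher. Hsd17b10, which encodes a subunit of the enzyme that cuts the front ends of transfer RNAs from the precursor, was 1.28-fold higher. Ddx28, a helicase of mitochondrial ribosome assembly, was 1.52-fold higher, and Trmu, which modifies mitochondrial transfer RNAs, 1.42-fold higher. Fastk, whose mitochondrial protein form is needed for mt-Nd6 mRNA, was 1.31-fold lower, at 33.3 and 39.9 CPM in frontal and 47.2 and 48.8 CPM in parietal and interparietal libraries. Ppargc1b, a coactivator of mitochondrial biogenesis, was 1.74-fold lower at 4.31 and 5.82 CPM in frontal and 8.02 and 9.62 CPM in parietal and interparietal libraries. The calls of Trmu and Ppargc1b were also lost in DESeq2.

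Among nuclear genes for the partners of these RNAs, the mitochondrial ribosome's protein genes had 16 of 77 called higher and 2 lower, with a median log2 fold change of 0.11. For these lists the background is 6.25% of all tested genes called higher and 6.44% lower, and with the parietal and interparietal pair summed it is 379 genes higher and 412 lower. Mrpl12 was at 90.5 and 75.1 CPM in frontal and 53.2 and 52.9 CPM in parietal and interparietal libraries (1.56-fold higher), and Mrps28 at 18.6 and 24.3 CPM in frontal and 38.3 and 36.04 CPM in parietal and interparietal libraries (1.73-fold lower). With the parietal and interparietal pair summed, 1 was called higher and 1 lower, and Mrpl12 was among the calls lost, at an adjusted p of 0.0517 in edgeR. The mitochondrial aminoacyl-tRNA synthetase genes had 4 of 22 called higher and 0 lower, and 0 in either direction with that pair summed. They included Lars2, listed at 5942 and 4690 CPM in frontal and 3949 and 3824 CPM in parietal and interparietal libraries, where none of the other 21 exceeded 209 CPM in a library. Of 80 tested nuclear genes for respiratory chain and ATP synthase subunits, 18 were called higher and 9 lower, with a median of 0.06, and 4 higher and 2 lower with that pair summed. Ndufc1, a complex I subunit named for its small p in this list, was 1.77-fold higher. The list summed to 17898 and 19706 CPM in frontal and 19185 and 19345 CPM in parietal and interparietal libraries, which overlapped.

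The groups also differed in markers of other tissues, set against the same 6.25% higher and 6.44% lower among all tested genes. Of 13 skeletal muscle markers 9 were called lower in frontal libraries and 0 higher, and their summed level was 1659 to 1734 CPM in frontal and 2237 to 2245 CPM in parietal and interparietal libraries. Of 9 erythroid markers 6 were lower and 0 higher, summing to 10121 to 12033 CPM in frontal and 14596 to 14707 CPM in parietal and interparietal libraries. Neuron and neural progenitor markers went both ways, 7 of 13 higher and 3 lower, with sums of 1012 to 1027 CPM in frontal and 957 to 965 CPM in parietal and interparietal libraries. Of 10 meninges markers 5 were lower and 0 higher, and of 11 osteoblast lineage markers 2 were higher and 2 lower, with osteoblast sums of 2599 to 2613 CPM in frontal and 3648 to 3650 CPM in parietal and interparietal libraries. With the parietal and interparietal pair summed, 5 muscle, 3 erythroid and 3 meninges markers were called lower, 5 neural markers higher and 2 lower, and 1 osteoblast marker higher and 2 lower. Of 5 markers each, 1 endothelium, 1 epidermis, 2 cartilage and 0 macrophage markers were called lower, and 0 higher. With that pair summed, 1 endothelium, 0 epidermis, 1 cartilage and 0 macrophage markers were lower. Epidermis markers summed to 632 to 677 CPM in frontal and 712 to 719 CPM in parietal and interparietal libraries. None of these markers was at 0 in all libraries. Their part in the differences of mt-Nd4, mt-Nd5 and the ribosomal RNAs was not tested.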

How the data were processed

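RNA from the skull vault of mouse embryos was measured in 4 libraries, 2 frontal and 2 parietal-interparietal. The authors deposited a table of raw read counts per gene; per the submitters' processing notes, Trim Galore 0.6.7, HISAT2 2.1.0 and featureCounts 2.0.1 were used with GRCm38. Strand setting, treatment of reads with several matches and annotation release were not given in the sources used here. Of 55487 gene IDs, 55141 matched GENCODE M21, whose symbols, coordinates and transcript sequences (GRCm38) were used. Column totals ran from 24069177 to 35555013 counts.

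CPM values were computed from the deposited counts with TMM scaling in edgeR 4.0.16 (R 4.3.3). After filterByExpr with a minimum count of 10, 20947 genes were tested with edgeR's quasi-likelihood test, group as the only term, 2 residual degrees of freedom and Benjamini-Hochberg adjustment, called at an adjusted p under 0.05; the script was tested on simulated data. Nuclear copies were searched with BLAST+ 2.17.0 among annotated transcripts. Intervals and floors (3 counts) cover counting error only. Alternatives were other scalings, filters, DESeq2 1.42.0, halved counts, a replicate block, left-out libraries, the parietal-interparietal pair summed and, chosen after seeing the data, nuclear copies added to their originals.

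The members and gene lists were chosen with earlier results of these data known. All mRNAs and ribosomal RNAs are named, the 8 transfer RNAs with most counts, all called genes of the 3 machinery lists, up to 4 genes of smallest p of each nuclear list, and the 4 nuclear copies with most counts. Gm13341, Gm28439 and the 4 plus-strand transfer RNAs with a count are named beside that rule.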

Additional observations from a re-analysis of the deposited data

How the results depend on the processing

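Over 44 named genes and up to 14 alternatives each, 608 values were computed: 505 kept their direction and their side of the threshold, 58 lost a call, 37 gained one and 8 changed sign. The calls of mt-Rnr2 and mt-Nd4 held in all 14. Leaving out 1 library gave 423 to 3483 genes called higher and 442 to 3796 called lower among all genes, 2 to 6 mitochondrial genes called higher and 1 to 12 lower, and 0 to 28 genes of the 3 machinery lists called. The group left with 1 library was then assumed to vary like the other. With both parietal and interparietal libraries summed into 1, 379 genes were higher and 412 lower among all genes, 1 mitochondrial gene was called higher, and 0 machinery genes were called. With no filter on low counts 6 mitochondrial genes were called lower. The summed classes kept their direction over the left-out libraries. Their log2 ratios were −0.33 to −0.08 for mRNA, 0.80 to 1.02 for ribosomal RNA and −0.66 to −0.27 for transfer RNA. The transfer RNA sum was nearly all mt-Tp. The other 21 went the opposite way, at a log2 ratio of 1.04. They had 20 and 28 counts in frontal and 6 and 13 counts in parietal and interparietal libraries. Leaving out 1 library changed the sign of the log2 fold change for mt-Nd1 (−0.23 to 0.087), mt-Nd2 (−0.11 to 0.31), mt-Co1 (−0.14 to 0.089), mt-Atp8 (−1.16 to 0.25), mt-Nd3 (−0.86 to 0.16), mt-Nd4l (−1.14 to 0.14) and Gm28437 (−0.41 to 0.23), through frontal library 1 or 2 or, for Gm28437, also parietal and interparietal library 2; the cause was not tested.

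Libraries with the same number did not deviate together (r = 0.018 over 20947 genes), so no pairing by number showed in the levels. This check cannot tell whether same-numbered libraries shared animals, a litter or handling. With the replicate block 1602 genes were called higher and 1704 lower, 3 mitochondrial genes higher and 3 lower, and 7 machinery genes. The counts of mt-Atp8, and of the transfer RNAs other than mt-Tp, are low, and 2 libraries a group limit every result.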
